A study of Mus musculus with 60 samples.

Results

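The collagen gene family was followed in 2 fat depots and 1 muscle of C57BL/6JN mice: white adipose tissue under the skin (subcutaneous, scWAT), that around the organs (visceral, vWAT), and the triceps. Members were the protein-coding genes whose symbol is Col, a number, the letter a and a number. The deposited table of 54352 genes held 44 of them. They were split by assembly type into 11 fibrillar collagens, 6 basement membrane collagens (all collagen IV), 6 collagen VI genes and 21 others.

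Gene counts came from 60 bulk 3′ digital gene expression libraries, a method that reads a short tag near the 3′ end of each messenger RNA. Each tissue had 4 groups of 5 mice: chow sedentary, chow trained, high-fat diet (HFD) sedentary and HFD trained. The chow held 10% and the HFD 60% of energy as fat, and each was fed for 6 weeks. Trained mice ran on a wheel of their own accord for the last 3 weeks, and the wheels were locked for the final 24 h. All mice were 12 weeks old and had fasted for 6 h, and by the animal codes in the titles 20 animals each gave all 3 tissues. The labels name no transgene or mutant allele in any group.

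Collagens are built from 3 chains that wind around each other. The winding needs a glycine at regular steps, so the coding sequence of a collagen repeats a glycine codon, GGN, once in 9 bases. Fibrillar collagens I, III and V form the banded fibres that bear load, and collagen III is abundant in soft, distensible tissue. Collagen IV forms the sheet-like network of the basement membrane, which surrounds every adipocyte, muscle fibre and small vessel. Collagen VI makes beaded filaments at the surface of adipocytes and muscle fibres. Collagens XV and XVIII, the multiplexins, link basement membranes to the surrounding matrix, and collagen XIV coats the surface of fibrils. In adipose tissue most fibrillar collagen messenger RNA is made by fibroblast-like progenitor cells.

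The 3 main classes can be told apart in their coding sequence. Below are 81 coding bases of 2 fibrillar chains, 1 collagen VI chain and both main collagen IV chains, shown because the results turn on these 3 classes. Capitals mark the glycine codons of the repeat.
Col1a1, coding bases 502 to 582: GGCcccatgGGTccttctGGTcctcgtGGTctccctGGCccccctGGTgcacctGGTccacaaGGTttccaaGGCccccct
Col3a1, coding bases 490 to 570: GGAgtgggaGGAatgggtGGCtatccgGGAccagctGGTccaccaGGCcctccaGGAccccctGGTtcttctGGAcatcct
Col6a3, coding bases 6493 to 6573: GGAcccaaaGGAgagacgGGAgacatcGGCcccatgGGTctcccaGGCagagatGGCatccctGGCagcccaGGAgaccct
Col4a1, coding bases 634 to 714: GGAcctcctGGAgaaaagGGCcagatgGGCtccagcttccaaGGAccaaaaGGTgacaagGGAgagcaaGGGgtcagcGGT
Col4a2, coding bases 667 to 747: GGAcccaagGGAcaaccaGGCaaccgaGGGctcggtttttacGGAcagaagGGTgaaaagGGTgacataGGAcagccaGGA
The first 3 stretches keep the spacing of 9 bases throughout, whereas the collagen IV stretches each hold 1 longer gap between capitalised codons. In Col4a2 this gap holds a glycine codon, ggt, that is out of step with the spacing of 9 bases. Counted over whole coding sequences of GENCODE vM21, the longest unbroken run in a fibrillar collagen was 216 to 344 repeats, with a median of 338. In collagen IV it was 39 to 66 repeats, and the repeat was broken into 23 to 27 blocks. In collagen VI it was 37 to 87 repeats in 3 to 6 blocks, the rest of these chains being globular domains.

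Several of the members the results turn on lie side by side in the genome (mm10, the GRCm38 assembly). Col3a1 (ENSMUSG00000026043) is at chromosome 1, 45311538 to 45349706 on the plus strand. Its neighbour Col5a2 (ENSMUSG00000026042) is at 45374321 to 45503282 on the minus strand. Col6a2 (ENSMUSG00000020241) and Col6a1 (ENSMUSG00000001119) both lie on the minus strand of chromosome 10, at 76595762 to 76623630 and 76708792 to 76726168. Col4a1 (ENSMUSG00000031502, minus strand, 11198423 to 11312826) and Col4a2 (ENSMUSG00000031503, plus strand, 11312805 to 11449287) meet head to head on chromosome 8. Col1a1 (ENSMUSG00000001506) is at chromosome 11, 94936224 to 94953042, Col1a2 (ENSMUSG00000029661) at chromosome 6, 4504814 to 4541544, and Col6a3 (ENSMUSG00000048126) at chromosome 1, 90765923 to 90843971. Where genes overlap, a table counted without strand cannot separate them. Tags from the 3′ ends of Col4a1 and Col4a2 would lie away from where these genes meet.

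Libraries held 505336 to 744581 counts, of which 67999 fell on collagens over all 60. Of the 44 members, 2 (Col2a1 and Col10a1) had no count, 24 including these had under 100, and 13 with at least 800 held 96.73% of the collagen counts. Fibrillar genes held 60.93% of them, collagen IV 20.69% and collagen VI 13.98%. Collagen IV took a larger share in vWAT (25.13%) than in scWAT (18.51%) or triceps (14.14%). A filter on low counts passed 13 members in scWAT, 15 in vWAT and 9 in triceps, and only these could be tested. Levels are CPM, that is, each library's counts scaled to sum to 1e+06, and 3′ tags are not scaled by gene length, so levels are compared between samples of a gene, not between genes.

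Mitochondrial transcripts took a smaller share of the counts under HFD. It was 8.33 to 15.6% in scWAT under HFD against 15.5 to 22.9% on chow, and 6.14 to 11.9% in vWAT against 12.9 to 20.2%. Fold changes were therefore taken from edgeR with TMM scaling, which lowers the log2 effect of HFD by 0.19 and 0.26 in scWAT and by 0.20 and 0.17 in vWAT (sedentary and trained mice) relative to total counts. They are smaller than ratios of the CPM values for that reason, and the part of the mitochondrial share in the collagen changes was not tested. Whether groups overlap is read from CPM, without TMM scaling. The share of all genes whose groups do not overlap is not given here, so such a gap describes the libraries only. In 6 of the scWAT libraries, replicates 2, 4 and 5 of both chow groups, B cell markers gave 169 to 435 reads against 2 to 16 in the other 14. They are called the libraries with lymph node reads, and the collagen calls that rest on scWAT are also given without them, which leaves 2 libraries in each chow group. In bulk tissue, fewer cells of a type and less RNA per cell cannot be told apart.

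Summed over the family, collagen transcripts were most abundant in sedentary HFD mice in both fat depots. In vWAT the 5 HFD sedentary libraries had 2386 to 3606 CPM, above every library of the other 3 groups (1137 to 2182 CPM). In scWAT the HFD sedentary libraries had 2950 to 5222 CPM and overlapped the chow sedentary libraries (1139 to 3404 CPM). Triceps held 297 to 969 CPM in all, with the highest value in a chow sedentary library.

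**Figure D1:**
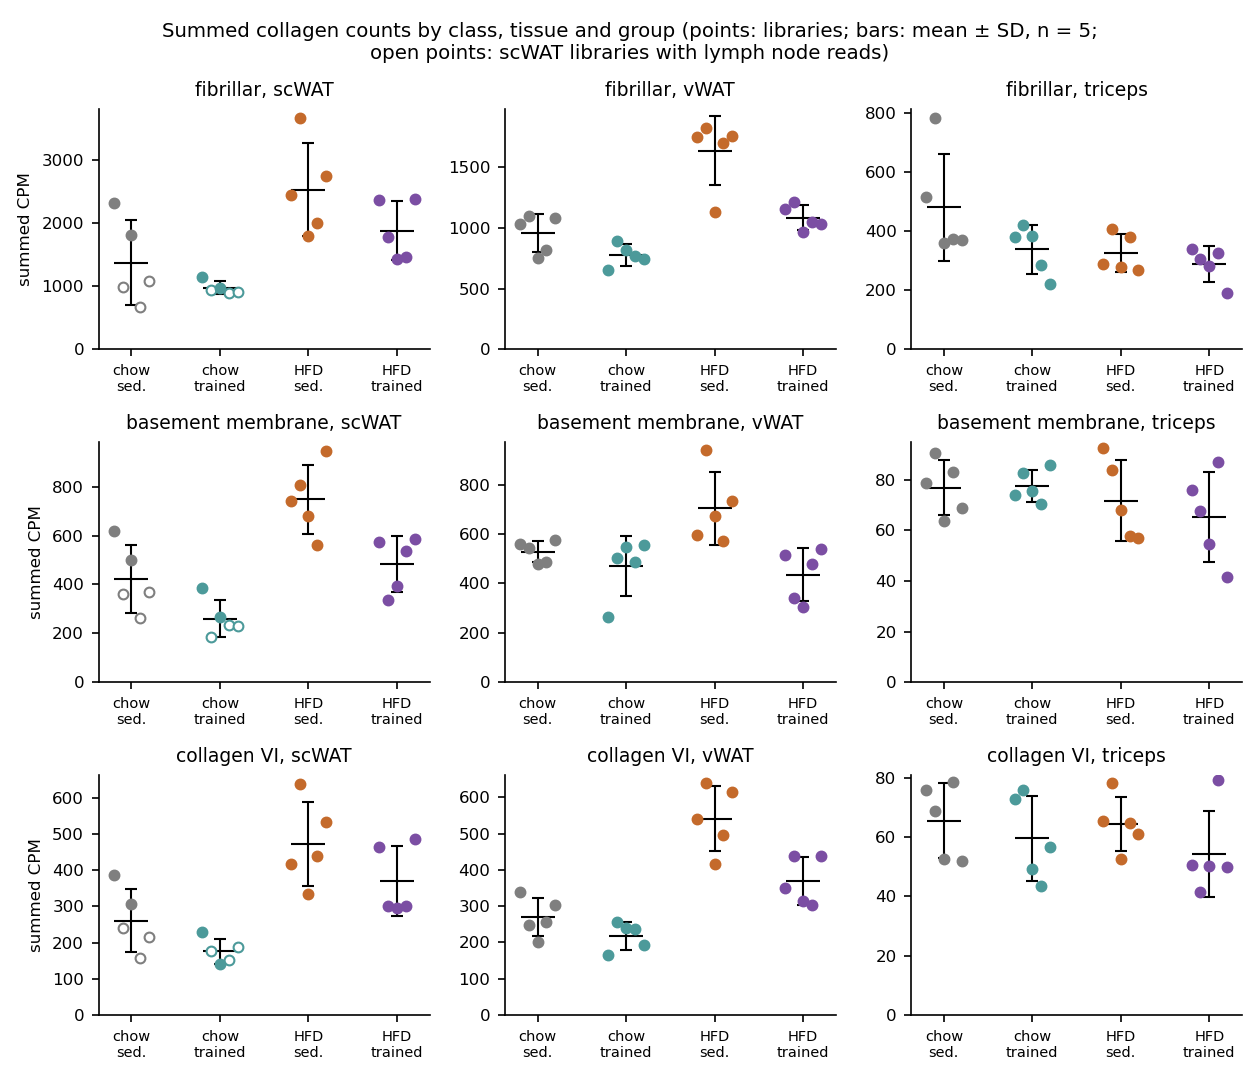
Summed CPM (y axis) of fibrillar, basement membrane and collagen VI genes in each library of scWAT, vWAT and triceps, by diet and activity group (x axis). Points are libraries, bars the mean ± SD of 5, and open points the 6 scWAT libraries with lymph node reads. In vWAT all 3 classes had their highest mean in HFD sedentary mice, at 1633 CPM for fibrillar, 704 for basement membrane and 541 for collagen VI genes. The 3 open points of the chow sedentary group lie below its 2 filled points in each scWAT panel.

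In vWAT of sedentary mice, HFD raised the transcripts of 4 collagens: Col6a1, Col6a2, Col3a1 and Col1a1. No collagen was lower. These were 4 of the 15 members tested, against 3.91% of all 6990 genes called higher and 4.15% called lower. The called genes belong to collagen VI and to the fibrillar class, while Col4a1 and Col4a2 were not called. Adjusted p values here and below are from edgeR's quasi-likelihood test with Benjamini-Hochberg correction over all genes tested, and a gene was called under 0.05.

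The largest fitted change was that of a collagen VI gene, Col6a1. Col6a1, which encodes the α1 chain, had 120.7, 83.0, 70.1, 93.6 and 111.6 CPM in chow sedentary replicates 1 to 5. In the HFD sedentary replicates it had 233, 308, 172, 221 and 257 CPM. Every HFD value lay above every chow value, and the log2 fold change was 1.11 (SE 0.19, adjusted p = 0.000173). Col6a2, the α2 chain, had 98.3, 83.0, 59.9, 74.9 and 71.8 CPM on chow and 137, 187, 120.5, 144 and 170.4 under HFD. These groups did not overlap either, and the change was 0.77 (SE 0.19, adjusted p = 0.00754). Col6a3, the long α3 chain whose end is released as endotrophin, had 73.5 ± 18.5 and 111.5 ± 17.7 CPM (SD, n = 5 each) and was not called (0.40, adjusted p = 0.248). Col6a5, counted mainly in vWAT, had 13.5 ± 11.0 and 28.2 ± 15.9 CPM and was not called.

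Of the fibrillar genes, Col3a1 had 560.2, 496.5, 391, 371 and 448 CPM in chow sedentary vWAT and 871, 911, 568, 805 and 915 under HFD. The lowest HFD library, replicate 3, was just above the highest chow library. The log2 fold change was 0.64 (SE 0.13, adjusted p = 0.00145). Col1a1, the α1 chain of collagen I, had 67.2, 114, 38.0, 67.1 and 119.6 CPM on chow and 179.3, 179.0, 93.4, 223 and 196 under HFD. Replicate 3 again had the lowest HFD value, and here it fell within the chow range. The change was 0.91 (SE 0.26, adjusted p = 0.0346), and the call was lost in 7 of the 10 fits with 1 library left out (HFD replicate 1, 2, 4 or 5, or chow replicate 1, 3 or 4). The Col1a1 call was also lost with the run of library codes as a factor (0.82, adjusted p = 0.213) and with only the groups compared (0.91, adjusted p = 0.082). Without the 3 HFD libraries with intestine and muscle reads it was lost as well (0.88, adjusted p = 0.0798). Col1a2, its partner chain, had 252.8 ± 74.7 and 421.4 ± 97.0 CPM with a change of 0.54 (adjusted p = 0.094). Col5a2 had 62.4 ± 9.02 and 101.7 ± 24.1 CPM, in groups that did not overlap, and was not called at 0.50 (adjusted p = 0.0867). Col5a1 changed by 0.39 and Col5a3 by -0.24 in the fit, neither called.

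Of the other members, Col14a1, a fibril coat collagen, had 18.6 ± 10.5 and 38.2 ± 10.9 CPM (0.85, adjusted p = 0.106). Col4a1 had 349.4 ± 21.0 and 476.3 ± 107.4 CPM, and its change of 0.24 was not called (adjusted p = 0.513). Col4a2 had 0.12 (adjusted p = 0.845), Col15a1 0.03 and Col18a1 0.39. The median change over the 15 tested members was 0.50 (14 above 0), against -0.01 over all genes.

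Training lowered 3 collagens in vWAT of HFD mice: Col3a1, Col6a2 and Col4a1. They were 3 of 15 tested members, against 1.87% of all genes called lower and 1.22% called higher. None was higher. This comparison and the one before it share the 5 HFD sedentary libraries, so a high value there enters both. Col3a1 had 514, 486, 429.9, 440.1 and 463 CPM in the HFD trained replicates, all below the HFD sedentary range of 568 to 915. Its change was -0.74 (SE 0.13, adjusted p = 0.000947). The trained HFD values of Col3a1 were also above every chow trained value (300.3 to 409 CPM).

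Col6a2 had 81.9, 80.0, 49.7, 71.9 and 114.0 CPM in the HFD trained replicates, below every HFD sedentary value. Its change with training was -0.87 (SE 0.19, adjusted p = 0.00714). Col6a1 had 149, 196, 112, 138 and 199 CPM, a change of -0.52 that was not called (adjusted p = 0.111). Col4a1 had 399, 645, 473, 370.1 and 495 CPM in HFD sedentary vWAT and 319, 222, 178, 334 and 347 in HFD trained vWAT. These groups did not overlap, and the change was -0.70 (SE 0.18, adjusted p = 0.0297). The Col4a1 call did not survive in 5 of 10 fits with 1 library left out (replicates 2 and 5 of the sedentary group, and replicates 1, 2 and 3 of the trained group). Col4a2 had 208.1 ± 45.8 and 131.5 ± 46.7 CPM, a change of -0.60 (SE 0.17) that was not called. In all, 13 of the 15 tested members lay below 0, with a median of -0.48 against 0.02 over all genes.

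**Figure D2:**
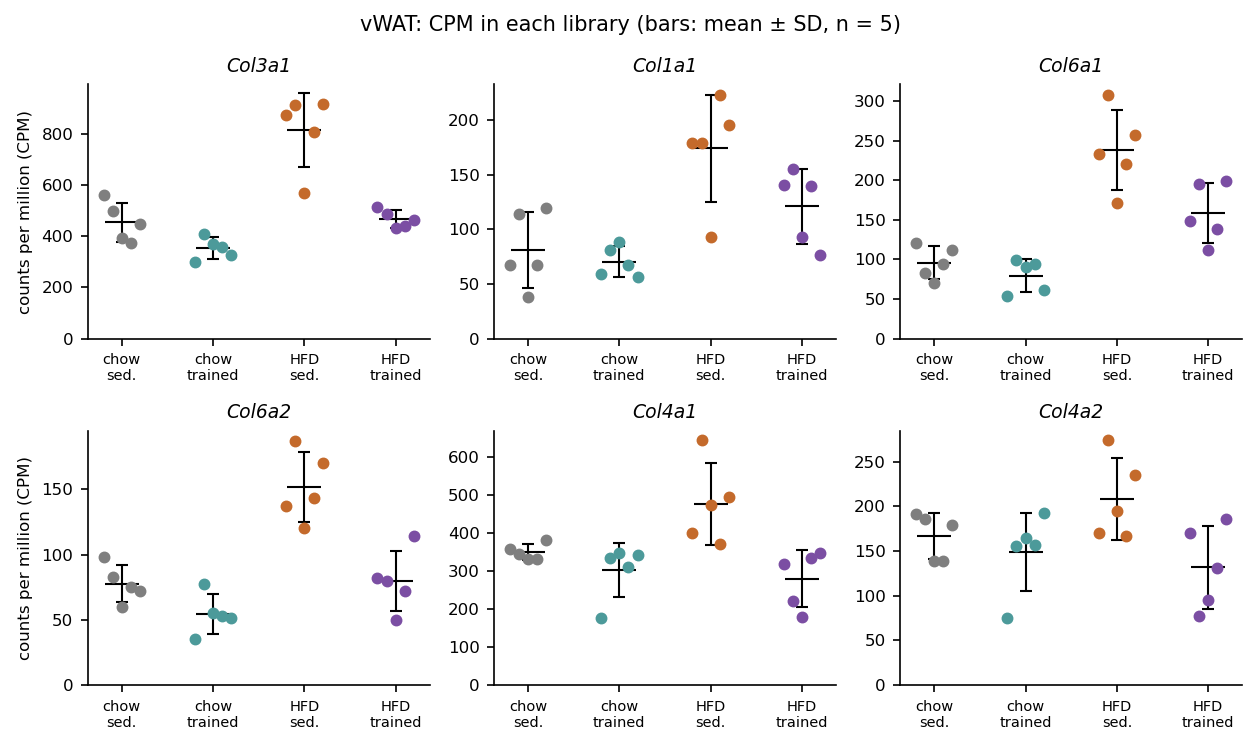
CPM (y axis) of 6 collagens in each vWAT library by diet and activity group (x axis). Points are libraries and bars the mean ± SD of 5. For Col3a1 the HFD trained libraries (429.9 to 514 CPM) sit between chow trained (300.3 to 409) and HFD sedentary libraries (568 to 915), while for Col4a1 they reach from 178 to 347 CPM, about the range of the chow trained libraries.

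In trained mice HFD raised 1 collagen in vWAT, Col6a1, where 1.2% of all genes were called higher and 1.42% lower. Its chow trained replicates had 53.4, 98.7, 90.4, 93.9 and 60.9 CPM, all below the HFD trained values above. The change was 0.82 (SE 0.19, adjusted p = 0.0108), and it lost the call without chow trained replicate 5 (adjusted p = 0.0512). The call was also lost with the run of library codes as a factor (0.71, adjusted p = 0.105), within the run of 12 libraries (0.71, adjusted p = 0.126) and without the 3 HFD libraries with intestine and muscle reads (0.75, adjusted p = 0.0607). Neither Col3a1 nor Col5a2 was called, with fitted changes of 0.23 (adjusted p = 0.453) and 0.52 (adjusted p = 0.171), though their CPM values did not overlap between these groups. Col4a1 and Col4a2 had negative changes of -0.28 and -0.35, neither called. Col6a5 had the highest fitted change, 1.78, from 11.0 ± 8.92 and 42.6 ± 25.1 CPM, and was not called (adjusted p = 0.169).

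On chow, training called no collagen in vWAT, where 0.587% of all genes were called. Neither DESeq2 nor limma voom called any. At an unadjusted p under 0.05 were 580 of all 6990 genes, in either direction, and 2 members, both lower. The 2 members were Col3a1 (-0.33, adjusted p = 0.421) and Col6a2 (-0.47, adjusted p = 0.485). The interaction of diet and training, which asks whether training acted differently on the 2 diets, also called none (0.0143% of all genes), with any of the 3 tools. Col3a1 had the lowest unadjusted p (-0.41, adjusted p = 0.673) and was the only member under 0.05 (487 of all 6990 genes were), and Col4a1 came next (-0.52, adjusted p = 0.721). The fall of 3 collagens with training on HFD was therefore not shown to differ from the change on chow.

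Markers of cell types moved with diet in vWAT as well. The 10 fibroblast and progenitor markers summed to 709 to 920.1 CPM in HFD sedentary and 576 to 795 in chow sedentary libraries. With training on HFD they summed to 648 to 824. The 10 macrophage markers summed to 1387 to 5917 CPM in HFD sedentary libraries against 780 to 1043 on chow and 768 to 1647 in HFD trained libraries. The 10 adipocyte markers went the other way, with 23540.5 to 32711 CPM in HFD sedentary libraries, all below the 33326 to 43698 CPM of chow sedentary libraries, and 28734 to 39911 CPM in HFD trained libraries. No marker of these lists was at 0, and their part in the collagen changes was not tested. The vWAT libraries also fall into 3 runs of library codes, 1 of 5 chow libraries, 1 of 12 from all groups and 1 of 3 HFD libraries, so that run and diet cannot be told apart outside the run of 12. Within the run of 12, HFD called 2 collagens in sedentary mice, Col3a1 (0.78, adjusted p = 0.0222) and Col6a1 (1.02, adjusted p = 0.0332). There Col6a2 changed by 0.84 (adjusted p = 0.0653) and Col1a1 by 0.69 (adjusted p = 0.401), and the 3 calls for training on HFD all held (Col3a1 -0.70, Col6a2 -1.03, Col4a1 -0.95).

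In scWAT of sedentary mice, HFD raised 2 collagens, Col5a2 and Col6a1, and lowered none. They were 2 of 13 tested members, against 3.55% of all 7069 genes called higher and 2.8% called lower. Both calls were lost without the 6 libraries with lymph node reads. Col5a2, the α2 chain of the collagen that starts and limits fibril growth, had 95.8, 45.5, 76.4, 42.8 and 50.3 CPM in the chow sedentary replicates. Under HFD it had 154, 159.8, 112, 107 and 151 CPM, all above the chow values, with a change of 0.92 (SE 0.20, adjusted p = 0.00677). Without the lymph node libraries the change was 0.40 (adjusted p = 0.429), from 2 chow libraries of 76.4 and 95.8 CPM. With muscle and B cell reads as covariates it was 0.69 (adjusted p = 0.0104).

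Col6a1 had 111.2, 71.2, 97.2, 52.0 and 72.0 CPM on chow and 145, 226, 120.3, 175 and 173 CPM under HFD in scWAT. The groups did not overlap, and the change was 0.86 (SE 0.23, adjusted p = 0.0273). It was 0.42 (adjusted p = 0.562) without the lymph node libraries and 0.59 (adjusted p = 0.0666) with the covariates, and with 1 library left out it was lost in 5 of 10 fits (HFD replicate 2 or 4, or chow replicate 2, 4 or 5). Within the group on chow, the libraries with lymph node reads were the low ones. All-collagen levels were 1139 to 1731 CPM in its 3 libraries with lymph node reads and 2676 to 3404 CPM in the other 2.

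Every one of the 13 tested collagens had a positive fitted change in this comparison, with a median of 0.62 against -0.05 over all genes. Without the lymph node libraries the median was 0.08. Col1a1 had 154.2 ± 96.9 and 317.0 ± 111.1 CPM (0.82, adjusted p = 0.117) and Col1a2 366.8 ± 162.9 and 646.6 ± 226.4 CPM (0.61, adjusted p = 0.195). Col3a1 had 700.7 ± 364.9 and 1304 ± 370 CPM (0.68, adjusted p = 0.175). Of the collagen IV genes, Col4a1 had 293.1 ± 113.5 and 521.6 ± 99.7 CPM (0.62, adjusted p = 0.134). Col4a2 had 126.4 ± 25.1 and 212.5 ± 42.9 CPM in groups that did not overlap (0.55, adjusted p = 0.107). Col6a2 (0.51), Col6a3 (0.58), Col5a1 (0.76), Col15a1 (0.73) and Col18a1 (0.49) were not called.

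In trained mice HFD raised Col5a2 and Col6a3 in scWAT, 2 of 13 tested members against 3.15% of all genes called higher and 2.01% called lower. Col5a2 had 48.6, 39.2, 47.9, 41.1 and 50.4 CPM in the chow trained and 108.0, 102.9, 84.8, 108.5 and 115.8 CPM in the HFD trained replicates. The groups were far apart, and the change was 0.91 (SE 0.21, adjusted p = 0.0123). In this comparison Col5a2 lay at 47.9 and 48.6 CPM in the 2 chow trained libraries without lymph node reads, within the range of the other 3. Its change without the 6 libraries was 0.71 (adjusted p = 0.101), and with muscle and B cell reads as covariates it was 0.52 (adjusted p = 0.356). Col6a3 had 81.0, 89.8, 65.4, 66.8 and 68.3 CPM on chow and 215, 143, 150.3, 125 and 210.2 CPM under HFD, with no overlap. The change was 0.91 (SE 0.25, adjusted p = 0.0376), was 0.82 (adjusted p = 0.131) without the lymph node libraries, and was still called in 2 of 10 fits with 1 library left out (HFD replicate 4 or chow replicate 1). With the covariates the Col6a3 change was 0.32 (adjusted p = 0.715), and limma voom did not call it (0.88, adjusted p = 0.0611). Col6a1 (0.72, adjusted p = 0.0743), Col4a1 (0.69, adjusted p = 0.0964) and Col18a1 (1.00, adjusted p = 0.116) were not called, and Col4a1 and Col18a1 were at 0.25 and 0.49 without the 6 libraries.

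**Figure D3:**
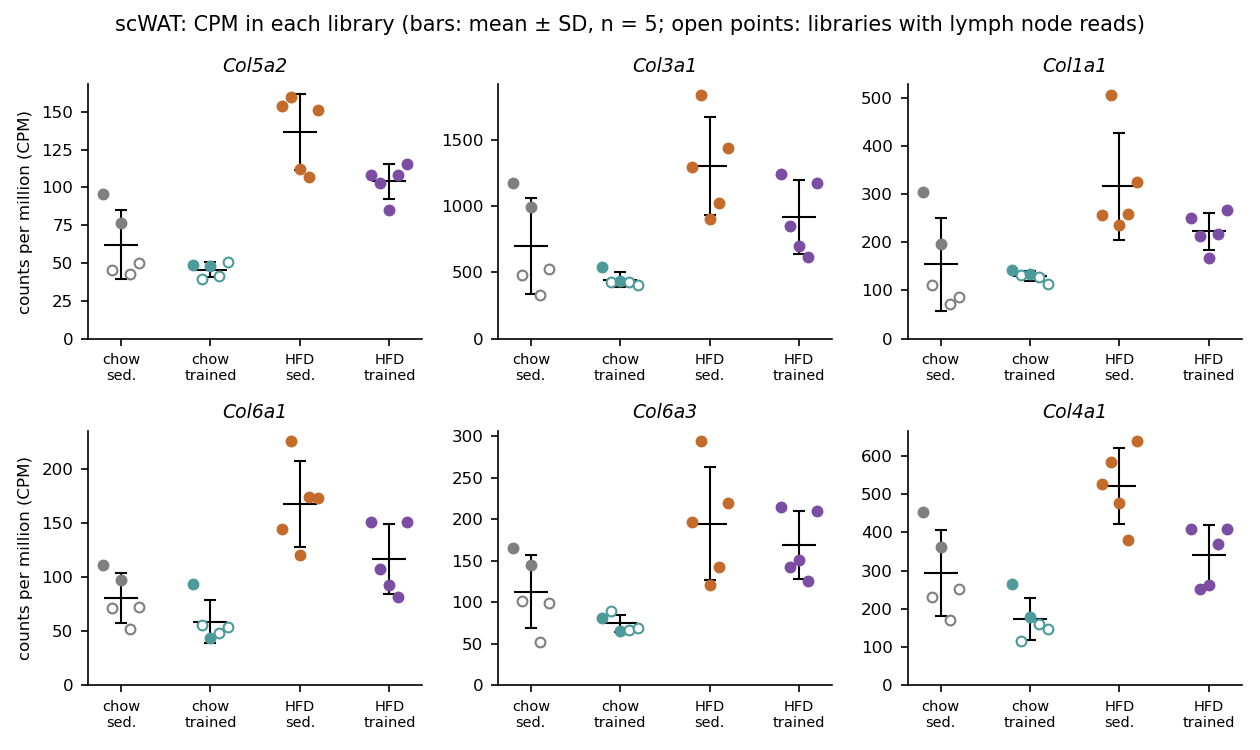
CPM (y axis) of 6 collagens in each scWAT library by diet and activity group (x axis). Points are libraries, bars the mean ± SD of 5, and open points the 6 libraries with lymph node reads. Col5a2 reached 107 to 159.8 CPM in HFD sedentary libraries, and the chow sedentary libraries without lymph node reads had 76.4 and 95.8 CPM.

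Training called no collagen in scWAT on either diet. On chow no gene of 7069 was called, and on HFD 1% of genes were. Neither DESeq2 nor limma voom called a collagen. At an unadjusted p under 0.05 there were 2 members on chow and 3 on HFD, all lower. Of all 7069 genes, 377 on chow and 785 on HFD were under it, in either direction. The lowest p values on both diets belonged to the collagen IV pair. On chow Col4a1 had 293.1 ± 113.5 and 173.1 ± 55.6 CPM (-0.64, adjusted p = 0.786) and Col4a2 changed by -0.52 (adjusted p = 0.825). On HFD Col4a1 had 521.6 ± 99.7 and 340.8 ± 78.4 CPM (-0.57, adjusted p = 0.345), and Col4a2 changed by -0.58 (adjusted p = 0.225). Without the libraries with lymph node reads no collagen was called either. There 6 members had an unadjusted p under 0.05 on each diet, and the number of all genes under it is not given here. In these fits Col4a1 was at -0.73 on chow (adjusted p = 0.74) and -0.57 on HFD (adjusted p = 0.0813). The interaction called no collagen and no gene, with any of the 3 tools, and no member had an unadjusted p under 0.05. Its lowest unadjusted p values were those of Col5a3 (0.47, adjusted p = 0.977) and Col18a1 (0.51, adjusted p = 0.981).

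Cell type markers moved with diet in scWAT too. The fibroblast and progenitor markers summed to 841 to 1491 CPM in HFD sedentary against 401 to 781 in chow sedentary libraries, and to 896 to 1198 against 343 to 458 in trained mice. Mural cell markers summed to 712 to 1314 CPM in HFD sedentary and 344 to 666 in chow sedentary libraries. The 10 adipocyte markers summed to 36426 to 45151 CPM in HFD trained libraries, all above the 17986 to 33869.5 CPM of chow trained libraries, and to 18488 to 37834 against 18469 to 28388 CPM in sedentary mice. The 12 skeletal muscle markers ranged from 194 to 71607 CPM in chow trained and from 78.6 to 1252 CPM in HFD trained libraries, and from 123 to 20885 and 262 to 52842 CPM in the sedentary groups. All markers of these 4 lists were detected in each group, and their part in the result was not tested. The scWAT libraries fall into runs of 11 and 9 library codes, each with all 4 groups. In the run of 11, HFD changed Col5a2 by 1.25 in sedentary mice (adjusted p = 0.00857) and Col6a1 by 1.20 (adjusted p = 0.025). In the run of 9 the changes were 0.86 (adjusted p = 0.434) and 0.75 (adjusted p = 0.519).

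**Figure D4:**
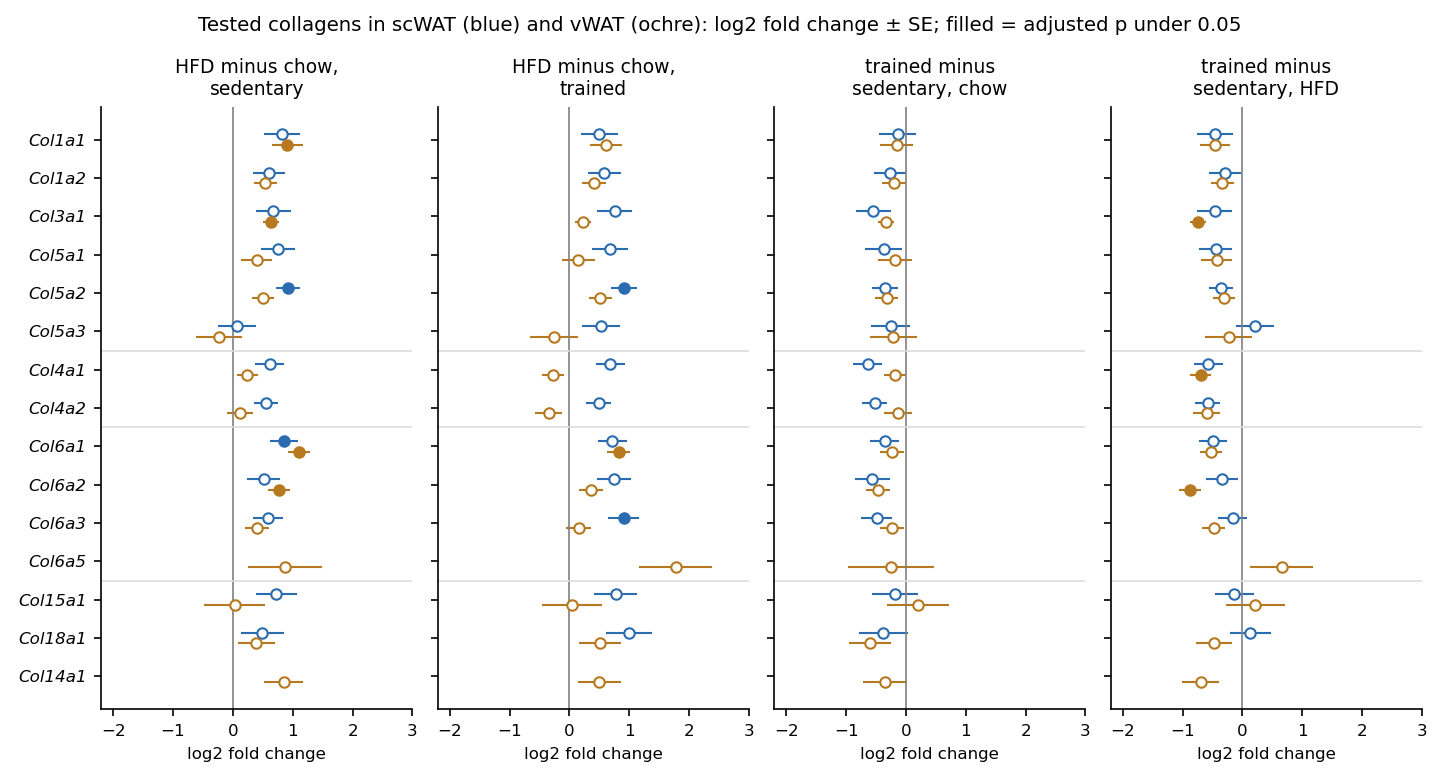
Log2 fold change (x axis) with its standard error for each tested collagen (y axis, ordered fibrillar, collagen IV, collagen VI, others) in scWAT (blue) and vWAT (ochre), for HFD in sedentary and trained mice and for training on chow and HFD. Filled points have an adjusted p under 0.05. With HFD in sedentary mice all 13 scWAT and 14 of 15 vWAT estimates lie above 0, and with training on HFD 11 of 13 and 13 of 15 lie below 0.

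Genes that make, process and bind collagen were read from 7 lists of 85 genes. In scWAT 13 of 49 tested were called with HFD in sedentary and 13 in trained mice, all higher. Of all genes, 3.55% and 3.15% were called higher, and 2.8% and 2.01% lower. Without the libraries with lymph node reads 2 of the first 13 (Prelp and Thbs1) and 5 of the second (Adamts2, Bgn, Dpt, Pcolce and Prelp) were still called, and with muscle and B cell reads as covariates 10 and 3 were. Among the enzymes and chaperones that modify and fold procollagen, 1 of 11 tested was called with HFD in sedentary vWAT, P4ha2, a prolyl 4-hydroxylase subunit (1.03, SE 0.24, adjusted p = 0.00544), against 3.91% of all genes called higher. In scWAT none of 11 was called in sedentary mice by edgeR, DESeq2 or limma voom, with 3 at an unadjusted p under 0.05 (1490 of all 7069 genes were). P4hb, the other hydroxylase subunit, was called in trained mice (0.67, SE 0.18, adjusted p = 0.0329). Serpinh1, the collagen chaperone HSP47, had a change of 0.01 in sedentary vWAT (adjusted p = 0.986) and 0.30 in scWAT (adjusted p = 0.522).

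Of the 6 propeptide processing genes tested, 2 were called higher with HFD in sedentary vWAT and 3 in sedentary scWAT, where 3.91% and 3.55% of all genes were. Pcolce2, an enhancer of procollagen C-proteinase, rose by 2.36 in vWAT (SE 0.26) and 2.82 in scWAT (SE 0.47, adjusted p = 0.000733) with HFD in sedentary mice. Adamts2, the procollagen N-proteinase, rose by 0.68 (SE 0.16, adjusted p = 0.00544) and 1.04 (SE 0.30, adjusted p = 0.0407). Without the libraries with lymph node reads the scWAT changes were 2.08 (adjusted p = 0.139) and 0.83 (adjusted p = 0.227). With training on HFD in vWAT, Pcolce2 fell by 1.28 (SE 0.23, adjusted p = 0.00147) and Loxl2, a lysyl oxidase, fell by 1.04 (SE 0.24, adjusted p = 0.0136). Lox itself, the main cross-linking oxidase, was not called in any diet or training comparison, with 0.74 for HFD in sedentary vWAT (adjusted p = 0.0759) and 0.54 in scWAT (adjusted p = 0.252).

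Of the fibril-binding proteins, 4 of 7 tested were called higher with HFD in sedentary mice in each depot, against 3.91% of all genes in vWAT and 3.55% in scWAT. In vWAT these were Prelp (1.21, SE 0.15), Lum (0.98, SE 0.20, adjusted p = 0.00125), Sparc (0.48, SE 0.12, adjusted p = 0.00846) and Bgn (0.52, SE 0.17, adjusted p = 0.0477). In scWAT they were Prelp (1.88, SE 0.24), Bgn (0.83, SE 0.19, adjusted p = 0.00746), Dpt (0.98, SE 0.24, adjusted p = 0.0136) and Sparc (0.95, SE 0.23, adjusted p = 0.0139), of which Prelp was still called without the libraries with lymph node reads (1.37, adjusted p = 0.00281) and Sparc was at 0.47 (adjusted p = 0.393). Prelp and Lum encode leucine-rich repeat proteins on collagen fibres, Sparc a collagen-binding glycoprotein, and Dpt is also one of the 10 fibroblast markers. With training on HFD in vWAT, Sparc fell by 0.69 (SE 0.12), and Prelp, Lum and Bgn fell as well (-0.69, -0.74 and -0.58). On chow in vWAT, training lowered Prelp (-0.86), Dpt (-0.75) and Sparc (-0.51, SE 0.12, adjusted p = 0.0354). Dpt was also the 1 gene called by the interaction of diet and training in vWAT (1.24, SE 0.21, adjusted p = 0.0115).

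Some basement membrane partners of collagen IV were called with HFD in scWAT, but none of these calls held without the libraries with lymph node reads. HFD raised Lama2 (1.15, SE 0.24, adjusted p = 0.00428) and Lamb2 (0.98, SE 0.27, adjusted p = 0.0295), both laminin chains, in sedentary scWAT, 2 of 8 tested against 3.55% of all genes. Without those libraries they were at 0.76 (adjusted p = 0.223) and 0.57 (adjusted p = 0.485). In trained mice 4 of 8 were called, against 3.15% of all genes: Lamc1 (0.97), Nid1 (0.91), Lamb2 (1.10) and Lama4 (0.76). In vWAT none of 7 was called with HFD in sedentary or trained mice by the 3 tools, with 1 and 0 at an unadjusted p under 0.05 (1391 and 962 of all 6990 genes were). The depot difference in this HFD effect was itself called for Lama2 in sedentary mice (-1.27, SE 0.30, adjusted p = 0.0243) and for Lama4 in trained mice (-1.11, SE 0.23, adjusted p = 0.0203). Without the 6 animals of the lymph node libraries these were -1.07 (adjusted p = 0.56) and -0.86 (adjusted p = 0.366).

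Of the genes for collagen breakdown and uptake, HFD raised Mmp3 (1.67, SE 0.33, adjusted p = 0.0029) and Timp4 (0.72, SE 0.20, adjusted p = 0.0286) in sedentary scWAT, a matrix metalloproteinase and an inhibitor of such enzymes. Without the libraries with lymph node reads they were at 0.93 (adjusted p = 0.226) and 0.48 (adjusted p = 0.471). Ctsk, the collagen-degrading cathepsin K, rose by 1.25 in sedentary vWAT (SE 0.30, adjusted p = 0.00647) and fell by 1.01 with training on HFD (SE 0.28, adjusted p = 0.0431). Mmp2, the gelatinase, was at 0.78 in both depots and not called (adjusted p = 0.0682 in scWAT and 0.128 in vWAT). Thbs1, an activator of latent TGF-β, had -2.09 for training on HFD in vWAT (SE 0.22) and -1.77 for training on chow (SE 0.25, adjusted p = 0.000163). In scWAT it was the 1 gene of the 7 lists that edgeR called with training on HFD (-2.27, SE 0.30, adjusted p = 0.000365), and it had -2.27 there without the libraries with lymph node reads as well. With HFD in sedentary mice Thbs1 rose by 2.67 in scWAT (SE 0.32, adjusted p = 9.46e-06), by 2.45 without those libraries (adjusted p = 0.00286), and by 0.86 in vWAT (SE 0.21, adjusted p = 0.00699). The depots differed in this effect (-1.75, SE 0.36, adjusted p = 0.00825), but not past the threshold without the 6 animals of the lymph node libraries (-1.20, adjusted p = 0.644). Timp1 and Tgfb1 were too low to test, with 117 and 18 counts over the 20 vWAT libraries. Of the collagen receptors, Itgb1, the shared integrin β1 chain, was called with HFD in sedentary scWAT (0.73, SE 0.19, adjusted p = 0.0195; 0.52 and adjusted p = 0.291 without the lymph node libraries), and none of 4 in vWAT by the 3 tools. In triceps edgeR called none of the 34 tested genes of the 7 lists in any of the 5 comparisons, with 3 to 7 at an unadjusted p under 0.05. Of all 4410 genes, 201 to 842 were under it, and both highest numbers, 7 and 842, were those of training on HFD. DESeq2 called 1 with training on chow and limma voom none.

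In triceps no collagen was called in any comparison, with edgeR, DESeq2 or limma voom. Of 4410 genes, none was called with HFD in either activity group or by the interaction, 0.726% with training on chow and 5.58% with training on HFD. At an unadjusted p under 0.05 there were 2 collagens, both lower with HFD in sedentary mice, where 201 of the 4410 genes were under it. The 2 collagens were the chains of collagen I, Col1a1 and Col1a2. Col1a1 had 103.5, 285.5, 59.5, 59.9 and 67.4 CPM in the chow sedentary replicates and 47.0, 85.3, 45.7, 59.3 and 35.5 under HFD, a change of -1.14 (adjusted p = 0.981). Col1a2 had 209.9, 314, 134, 132 and 154 CPM on chow and 75.8, 134, 102.5, 153 and 116 under HFD (-0.76, adjusted p = 0.981). Chow replicates 1 and 2 had the highest values of both chains. Tendon markers had 131 and 126 reads in these 2 libraries and 133 in replicate 5, which was low in collagen I. By group, the 9 tendon markers summed to 81.4 to 191 CPM in chow sedentary and 47.1 to 124 CPM in HFD sedentary libraries. Their medians were 173 CPM in chow sedentary, 55.5 in chow trained, 66.7 in HFD sedentary and 87.2 in HFD trained mice. The part of tendon reads in the collagen I levels was not tested. Chow sedentary replicates 1 to 3 also lie in a run of 5 triceps libraries, all chow, with 129 to 170 intestine reads. Run and diet cannot be told apart there.

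The other triceps members varied little between groups relative to their spread. Col3a1 had 134.9 ± 15.1, 125.2 ± 35.3, 118.5 ± 20.0 and 110.2 ± 35.7 CPM in chow sedentary, chow trained, HFD sedentary and HFD trained mice. Col4a1 had 53.4 ± 9.19, 51.2 ± 6.01, 49.7 ± 10.8 and 43.9 ± 13.1 CPM in the same order. The lowest unadjusted p values elsewhere were those of Col6a2 (-0.62, adjusted p = 0.707) and Col4a1 (-0.23, adjusted p = 0.863) for HFD in trained mice, and Col1a2 (-0.50, adjusted p = 0.56) and Col1a1 (-0.73, adjusted p = 0.569) for training on chow. For training on HFD they were Col5a2 (-0.33, adjusted p = 0.577) and Col4a2 (0.33, adjusted p = 0.602), and for the interaction Col5a2 (-0.70, adjusted p = 0.986) and Col1a2 (0.62, adjusted p = 0.986). Of collagen VI, the group means were 20.7 to 24.8 CPM for Col6a1 and 19.8 to 25.9 CPM for Col6a3, with overlapping libraries.

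The 2 fat depots of the same animal differed in their collagen make-up. Averaged over the 4 groups and with the animal as a block, 9 of 15 tested members were called, against 27.5% of all 7931 genes. In vWAT 4 members were higher and 5 lower, against 14.1% and 13.3% of all genes. Of the 4 higher, Col6a5 and Col14a1 had passed the filter on low counts in vWAT and not in scWAT, so the filter favoured that direction. Without the 6 animals of the libraries with lymph node reads 7 of the 9 were still called. Collagen I and III genes were lower in vWAT, with a log2 difference of -0.94 for Col1a1 (SE 0.16, adjusted p = 0.000245), -0.61 for Col1a2 (SE 0.13, adjusted p = 0.00108) and -0.68 for Col3a1 (SE 0.09, adjusted p = 1.03e-06). Col1a1 was lower in vWAT in 18 of 20 animals and Col1a2 in 16 of 20. Without those 6 animals the differences were -1.35 for Col1a1, -0.92 for Col1a2 and -0.95 for Col3a1. Col5a2 was also lower (-0.26, SE 0.09, adjusted p = 0.031), in 14 of 20 animals, and lost the call without HFD trained animal 2 or without chow animal 1 or 3 of either activity group. It was also lost with DESeq2 (adjusted p = 0.0597), without the filter on low counts (adjusted p = 0.14) and with total counts (-0.18, adjusted p = 0.118), while without the 6 animals it was -0.48 (adjusted p = 0.00125).

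Collagen VI chains went in opposite directions between depots. Col6a3 was lower in vWAT (-0.76, SE 0.10, adjusted p = 5.67e-07), at a median of 70.3 against 134 CPM, in 17 of 20 animals, and by -0.88 without the 6 animals. Col6a1 was higher (0.34, SE 0.10, adjusted p = 0.0101), at a median of 116 against 95.6 CPM, also in 17 of 20. Without the 6 animals of the libraries with lymph node reads the difference for Col6a1 was 0.11 (adjusted p = 0.578). Col6a2 was at 0.23 and not called (adjusted p = 0.104). Col6a5 had 310 counts in vWAT and 7 in scWAT and was higher in vWAT in 20 of 20 animals.

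Col14a1 was higher in vWAT (1.36, SE 0.18, adjusted p = 3.86e-07), with 6.47 to 52.3 CPM against 1.62 to 20.5 CPM in scWAT, in 19 of 20 animals. Its difference without the filter on low counts was 1.36 (adjusted p = 3.04e-11) and without the 6 animals 1.36. Col18a1 was higher by 0.46 (SE 0.15, adjusted p = 0.0232) in 15 of 20 animals, but by 0.18 (adjusted p = 0.562) without the 6 animals of the lymph node libraries, and the call was also lost without HFD trained animal 2 or chow trained animal 4 or 5. The main collagen IV genes were not called, at 0.11 (SE 0.10, adjusted p = 0.475) for Col4a1 and 0.21 (SE 0.10, adjusted p = 0.104) for Col4a2. Like Col6a2, Col4a2 had an unadjusted p under 0.05, and Col4a1 turned to -0.23 (adjusted p = 0.0944) without the 6 animals. Mesothelial markers, which mark the lining of visceral fat, summed to 2.9 to 146 CPM in vWAT and 0 to 6.5 CPM in scWAT, where 3 to 8 of the 8 markers were at 0 in a group. Their part in the depot differences was not tested.

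**Figure D5:**
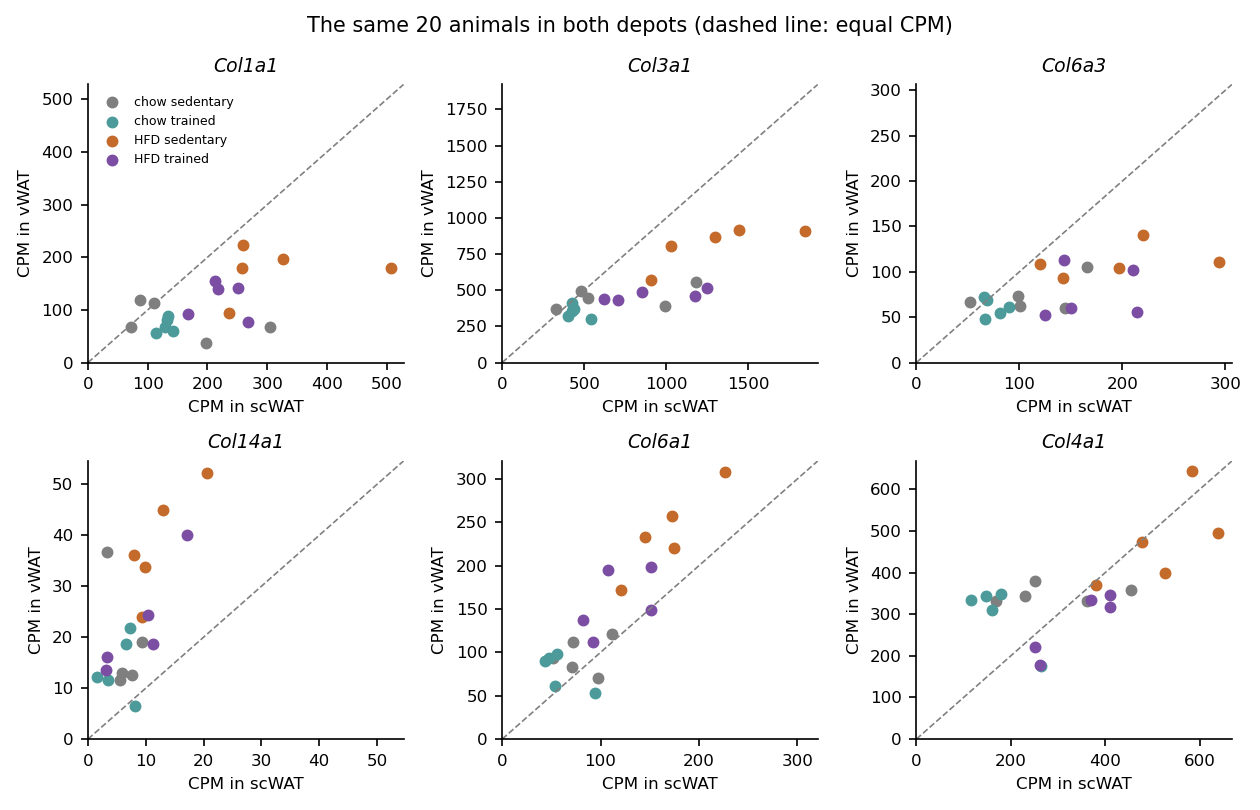
CPM in vWAT (y axis) against scWAT (x axis) for 6 collagens, with 1 point for each of the 20 animals, coloured by diet and activity group, and a dashed line of equal values. Col1a1 lies below the line in 18 animals and Col6a3 in 17, while Col14a1 lies above it in 19 and Col6a1 in 17.

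Procollagen processing genes differed between depots as well. Of the 11 modification and folding genes tested, 6 were higher in vWAT and none lower, against 14.1% and 13.3% of all genes, among them P4hb (0.45, SE 0.08), P3h1, a prolyl 3-hydroxylase (1.11, SE 0.18), and Colgalt1, which adds galactose to hydroxylysine (0.56, SE 0.10). Serpinh1 was higher by 0.23 (SE 0.09, adjusted p = 0.0483), and by 0.08 without the 6 animals of the lymph node libraries (adjusted p = 0.712). Pcolce (-0.74, SE 0.10) and Lox (-0.72, SE 0.13) were lower in vWAT, while Pcolce2 (0.97, SE 0.17) and Adamts2 (0.71, SE 0.14) were higher. Of the fibril binders, Dcn (1.01, SE 0.11) and Ogn (1.28, SE 0.15) were higher and Dpt (-1.04, SE 0.10) lower. Among the enzymes of breakdown, Mmp3 (-3.39, SE 0.26) and Mmp2 (-0.62, SE 0.14) were lower in vWAT and their inhibitors Timp4 (1.12, SE 0.08) and Timp2 (0.63, SE 0.11) higher.

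Whether the depots responded differently was tested directly, and no collagen was called by edgeR. For HFD in sedentary mice 1.68% of all genes were called and for HFD in trained mice 0.542%, with no gene for training on HFD. DESeq2 called Col4a1 for HFD in trained mice and no other member in these 3 comparisons. There edgeR gave -1.04 for Col4a1 (SE 0.29, adjusted p = 0.114) and -0.87 for Col4a2 (SE 0.28, adjusted p = 0.169), with 4 members under an unadjusted p of 0.05 (929 of all 7931 genes were). In the tissue fits Col4a1 was at 0.69 in scWAT and -0.28 in vWAT. Without the 6 animals of the lymph node libraries its depot difference was -0.31 (adjusted p = 0.909). For HFD in sedentary mice the lowest unadjusted p values were those of Col6a5 (adjusted p = 0.201), the only member under 0.05 (1030 of all 7931 genes were), and Col5a2 (-0.49, adjusted p = 0.407). For training on HFD they were Col6a2 (-0.54, SE 0.29) and Col18a1 (-0.61, SE 0.39), with none under 0.05.

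Some genes for chains of the same molecule varied together between mice. Within groups, over 20 libraries per tissue, log2 levels of Col1a1 and Col1a2 had a Pearson correlation of 0.88 in scWAT, 0.87 in vWAT and 0.88 in triceps. For Col4a1 and Col4a2 it was 0.84, 0.89 and 0.16, and for Col6a1 and Col6a2 0.55, 0.82 and 0.62, in the same order. Not all did: the 6 collagen VI pairs in vWAT ran from -0.31 to 0.82 with a median of 0.30, and Col6a3 with Col6a1 was at 0.38 in triceps. Values of 1 library share its depth and its mixture of cells. In scWAT, pairs from different classes were correlated almost as much as fibrillar pairs, with medians of 0.52 over 58 pairs and 0.59 over 15. In vWAT these medians were 0.32 over 82 and 0.15 over 15, and Col1a2 with Col4a1 was at -0.25 there against 0.71 in scWAT. These correlations describe the libraries and were not tested.

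The ratio of 2 chains within a library does not depend on its depth. In vWAT the log2 ratio of Col6a1 to Col6a2 was 0.30 ± 0.23 in chow sedentary, 0.55 ± 0.25 in chow trained, 0.64 ± 0.10 in HFD sedentary and 1.01 ± 0.21 in HFD trained mice (SD, n = 5 each). The HFD trained mice had the highest ratio, where Col6a2 had fallen and Col6a1 was not called. The log2 ratio of Col4a1 to Col4a2 stayed between 1.05 and 1.19 in the 4 vWAT groups. For Col1a1 to Col1a2 it was -1.71 ± 0.30, -1.61 ± 0.21, -1.30 ± 0.21 and -1.41 ± 0.24 in the order of the Col6a1 ratio. No test was made on these ratios.

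Several collagens of low count were found mainly in 1 tissue. Triceps held 37 of 41 counts of Col22a1, a collagen of muscle-tendon junctions, and 25 of 33 of Col11a1, a cartilage collagen. vWAT held 31 of 37 counts of Col4a6 and 141 of 209 of Col6a6. The members between 100 and 800 counts that were not tested in fat were Col4a4, Col4a5, Col6a6, Col8a1 and Col12a1. Without the filter on low counts edgeR called 4 of 24 further members between depots, all higher in vWAT, and DESeq2 called the same 4. In the main fit, with the filter, 14.1% of all genes were called higher in vWAT and 13.3% lower. The share of all genes called without the filter is not given here. The 4 calls are therefore not read as a trait of the low-count collagens. The 4 members were Col6a6 (2.44, SE 0.31, in 20 of 20 animals), Col4a5 (1.51, SE 0.32, in 17), Col4a4 (1.42, SE 0.34, in 14) and Col8a1 (0.93, SE 0.27, adjusted p = 0.0115, in 16).

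Promoter sequence was read for the members with a RefSeq entry that begins at their GENCODE start, 21 of 44, of which 8 were tested in fat. Col3a1 and Col6a2, both raised by HFD and lowered by training on HFD in vWAT, were among them. Their 250 bases before the start are shown 5′ to 3′ on the strand of the gene (GRCm38.p6), with matches in capitals.
Col3a1, chr1:45311288-45311537, plus strand: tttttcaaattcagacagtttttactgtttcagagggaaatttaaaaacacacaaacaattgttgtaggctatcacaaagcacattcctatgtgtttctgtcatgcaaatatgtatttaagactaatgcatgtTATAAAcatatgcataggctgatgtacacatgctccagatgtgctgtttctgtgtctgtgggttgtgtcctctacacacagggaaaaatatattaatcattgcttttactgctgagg
Col6a2, chr10:76623631-76623880, minus strand: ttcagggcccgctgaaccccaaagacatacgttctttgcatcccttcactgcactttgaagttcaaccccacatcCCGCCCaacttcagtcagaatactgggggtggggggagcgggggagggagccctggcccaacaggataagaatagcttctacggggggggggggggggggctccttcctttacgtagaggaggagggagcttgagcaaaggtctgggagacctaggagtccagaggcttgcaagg
Searched on both strands, Col3a1 held TATAAA and Col6a2 held GGGCGG, read here as its reverse complement, and neither held CCAAT. Over 32851 RefSeq promoters of that length, TATAAA was in 12.4%, GGGCGG in 32.7% and CCAAT in 33.8%. The 2 promoters shared none of the 3 motifs, and a match is a description of the sequence only.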

How the data were processed

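Gene counts were measured in 60 libraries of total RNA from 3 tissues of 20 mice. Per the labels' protocols, cDNA from 12 wells was pooled for 3′ digital gene expression sequencing, and per the submitters' processing notes reads were quantified with Salmon 0.14.2 on mm10. The authors deposited 1 column of estimated counts per library, rounded to whole numbers, and a log2 column per library, the log2 of CPM plus 1; the counts were used for every value and the log2 columns only to check the unit. How strand and PCR copies were handled is not given in the sources used here, and p values measure the spread between mice.

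Members followed the symbol rule, and all 44 identifiers were found in GENCODE vM21, which gave coordinates and coding sequences. The members and gene lists were chosen with earlier results of these data known. Named were every called collagen, the 6 most abundant per tissue, 12 main chains whatever their test, the 2 lowest p values where none was called, and up to 3 called genes per pathway list with 6 others whatever their test; pathway genes beyond this rule were added after their values were seen.

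Each tissue was fitted in edgeR 4.0.16 (R 4.3.3) with TMM scaling, the groupwise filterByExpr filter and a robust quasi-likelihood fit over its 20 libraries; both depots were fitted jointly with the animal as a block. Calls had a two-sided Benjamini-Hochberg adjusted p under 0.05 over all genes tested. On simulated counts of the scWAT HFD comparison with 7069 genes, 42% of 2-fold and 87% of 4-fold changes were recovered, and 3.01% of calls were false. Within the groups, none of 120 pairs of libraries was identical. A count of 0 allows up to 3 counts.

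Alternatives were DESeq2 1.42.0, limma 3.58.1 voom, other scalings and filters, the replicate number as a block, and left-out libraries. Runs are stretches of consecutive library codes in the column names of the deposited counts, with boundaries set where reads of organs not sampled change. The labels name no batch. RefSeq gave the promoters.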

Additional observations from a re-analysis of the deposited data

Results flagged for a closer look

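For 8 collagens in each tissue, single libraries were compared with the other 4 of their group, and 4 of the 96 groups held a library far from the rest; chance gives about 5%. In scWAT of chow trained mice, replicate 1 had 93.92 CPM of Col6a1, where the next library had 55.51. In scWAT of HFD sedentary mice, replicate 5 had 286.99 CPM of Col4a2, where the next had 202.18. In vWAT of chow trained mice, replicate 1 was low in Col4a1, with 176.85 CPM against 309.77 in the next library, and its all-collagen level of 1137 CPM was also the lowest of the 20 vWAT libraries. In triceps of chow sedentary mice, replicate 2 had 285.5 CPM of Col1a1, where the next had 103.5, and 969 CPM of all collagens, the highest of the 20 triceps libraries.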

How the results depend on the processing

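Which collagens passed the threshold depended on the processing more than their direction did. No called collagen changed sign under these settings, though medians over the members that were near 0 did. Apart from the fits with 1 library left out, 161 counts stayed within 1.5 times their main value and 24 did not. Comparisons with no collagen called in either fit are among the 161, so that tally says little about how stable the calls are. Of the called collagens and the medians, 328 values held, 30 calls were lost and 12 medians moved. Scaling by total counts called 7 and 10 collagens in scWAT with HFD (sedentary and trained mice, against 2 and 2), and 8 and 2 in vWAT (against 4 and 1). With that scaling the median log2 change of all genes was also above 0. It was 0.136 and 0.23 in scWAT (against -0.051 and -0.035 with TMM), and 0.186 and 0.17 in vWAT (against -0.012 and -0.002). Without the 6 libraries with lymph node reads scWAT had 0 and 0. In scWAT with HFD in sedentary mice, the run as a factor gave 5, muscle and B cell reads as covariates 1, no filter on low counts 4, and the runs of 11 and of 9 libraries 6 and 0. In trained mice limma voom gave 1, the covariates 0, no filter 7, only the groups compared 6, and the run of 9 libraries 0. In vWAT with HFD the run of 12 libraries gave 2 in sedentary mice and 0 in trained mice, where the run as a factor and leaving out the 3 HFD libraries with intestine and muscle reads also gave 0. For training on HFD in vWAT the run of 3 gave 1, from 1 sedentary library assumed to vary like the 2 trained ones. For the depot difference in the HFD effect in trained mice DESeq2 gave 1 and no filter 1, against 0. Except for the fits with 1 library left out, the share of all genes called in each alternative is not given beside these counts. A rise or fall in them is therefore not read as particular to collagens.

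Leaving out 1 library at a time gave 1 to 6 collagens in scWAT and 3 to 6 in vWAT with HFD in sedentary mice, 1 to 4 and 0 to 1 in trained mice, and 2 to 3 for training on HFD in vWAT. It gave 7 to 10 for the depot difference and 0 to 2 for its HFD effect in trained mice. In the other comparisons it gave 0 to 0. Over all genes these fits called 241 to 643 in scWAT and 354 to 628 in vWAT with HFD in sedentary mice. In trained mice they called 205 to 612 and 117 to 182, and for training on HFD in vWAT 84 to 340. For the depot difference they called 2001 to 2189 genes, and for its HFD effect in trained mice 7 to 114. Fits that change how many genes are called at all change these counts too; the cause was not tested.

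Of the pairs of same-numbered libraries from different groups, 16 of 30 correlated over 0.1 in scWAT (-0.187 to 0.559), 11 in vWAT and 7 in triceps. Pairs with different numbers were not computed, so whether libraries pair by replicate number was not decided. With the replicate block HFD called 3 and 4 collagens in scWAT, 4 and 1 in vWAT, and training on HFD 2 in vWAT, where Col4a1 was at -0.69 (adjusted p = 0.0528). It called 0 in triceps. Without the animal in the fit the depot difference had 8. For the depot difference DESeq2 and the fit without a filter on low counts called 12 each, against 9. The 24 members with under 100 counts over 60 libraries were left out by the filter, and the depth limits what a test of them can show.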
